A study of Mus musculus with 12 samples.

Results

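Gene expression in haematopoietic stem cells (HSC) was compared with that in 2 kinds of cell that lie downstream of them, the multipotent progenitor (MPP) and the progenitor of megakaryocytes and erythrocytes (PreMegE), with the progenitor groups given equal weight. The comparison used 10 of the 12 arrays of the series, 3 from HSC, 3 from MPP and 4 from PreMegE. The fourth PreMegE array is replicate 4 by its title but replicate 3 by its description, so it may not be a separate replicate; its values differ from those of PreMegE 3 and it was kept as a sample of its own. The remaining 2 arrays, from CD4+ T cells of the spleen, entered the fit of the spread between replicates and are given as a reference level. Each of 18193 genes was read on 1 probe set, the brightest over all 12 arrays among those annotated to that gene alone. A positive difference is a higher level in HSC, and a step from HSC to either progenitor is called an exit below. A gene that was higher in HSC on each exit is described as lost on leaving the stem cell, and a gene lower in HSC on each exit as gained.

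HSC are the cells of the bone marrow that renew themselves and maintain all blood lineages. MPP of the phenotype sorted here are biased to lymphoid and granulocyte-monocyte fates, while PreMegE give rise to platelets and red cells. A fraction of HSC is known to carry transcripts of the platelet lineage, among them von Willebrand factor, and quiescence, the Mecom and Meis1 transcription factors and the absence of the surface receptor CD48 are widely used to describe the stem cell state.

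All cells came from C57Bl/6 mice aged 10 to 12 weeks, with no treatment named in the labels beyond cell sorting. The HSC gate took lineage-negative, cKit+ and Sca1+ marrow cells that were CD150+ and lacked Flk2/Flt3. MPP came from the same lineage-negative, cKit+ and Sca1+ compartment but were CD150- and Flk2/Flt3+. PreMegE were lineage-negative and cKit+ but Sca1-, with CD150 present and both CD105 and CD41 absent. T cells were CD4+ and negative for CD8, B220 and Nk1.1. HSC and MPP samples were prepared for the series, whereas the PreMegE and T cell arrays were taken over from earlier studies of the same group, so that study and cell type cannot be told apart on the PreMegE exit. Only the MPP exit lies within 1 study. The number of mice behind a sample is not given, so the p-values rest on a spread between arrays that may be technical.

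Values are RMA intensities, which are summaries of the probes of a probe set on a scale without unit, and all levels and differences below are log2 of them. The upper quartile of intensity, before log2, varied between arrays, at 64.3 to 76.7 in HSC, 74.1 to 77.8 in MPP and 63.4 to 80.7 in PreMegE, and the lower quartile of the gene levels was 3.27 to 3.35 in the group means. Arrays of a group correlated over all genes at 0.985 or more for HSC, 0.994 for MPP and 0.984 or more for PreMegE, against 0.968 to 0.978 between HSC and MPP and 0.945 to 0.961 between HSC and PreMegE. The HSC arrays were not alike in sex-linked transcripts: Xist, the RNA of the inactive X chromosome, read 12.04, 2.45 and 2.59 on HSC 1, 2 and 3 and at least 11.16 on the 7 progenitor arrays, and the Y-linked Eif2s3y read 2.31, 7.46 and 8.47 against at most 2.71. HSC 2 also read 11.01 for the neutrophil granule gene Ngp, against 8.20 and 7.84 on HSC 1 and 3, and 9.04 for the immunoglobulin gene Ighm, against 5.04 and 4.71. The log2 ratio of 3′ to 5′ control probe sets of beta-actin, which rises with RNA degradation and with the labelling method, was 2.42 to 2.77 in HSC, 2.35 to 2.68 in MPP and 3.49 to 4.65 in PreMegE. The same ratio of Gapdh overlapped between PreMegE, at 3.12 to 4.39, and both HSC, at 3.86 to 4.14, and MPP, at 3.62 to 3.88. Results are therefore also given, where they change, without each array in turn and with HSC 1 as the lone HSC array.

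Of the sort markers, Flt3 and Slamf1 had the order of the gates, whereas Eng and Itga2b, for CD105 and CD41, were not lowest in PreMegE, whose gate excluded both proteins. Flt3 read 6.34, 6.82 and 6.63 in HSC, 10.10, 9.95 and 10.00 in MPP and 5.19 to 6.31 in PreMegE, and Slamf1, which encodes CD150, read 6.67 to 7.05, 3.53 to 3.86 and 6.58 to 7.02 in the same order. The next brightest probe set of Slamf1 gave exits of 1.58 to MPP (adjusted p = 0.00405) and -0.79 to PreMegE (adjusted p = 0.0454). Kit did not pass the test on the average (0.58 ± 0.23, adjusted p = 0.101). It did with cyclic loess normalisation (0.64, adjusted p = 0.0426) and without the T cell arrays (0.58, adjusted p = 0.0374). The next brightest probe set of Kit went the other way, at -0.48 on the average (adjusted p = 0.057) and -1.03 on the PreMegE exit (adjusted p = 0.000517). Eng was 7.92 ± 0.19 in HSC (SD, n = 3), 7.74 ± 0.28 in MPP (n = 3) and 8.11 ± 0.19 in PreMegE (n = 4), a difference of -0.00 ± 0.20 on the average (adjusted p = 0.998). Itga2b is described with the platelet genes. Ly6a, for Sca1, has no probe set named for it alone. Since these genes chose the cells, their levels check the sort and are no finding.

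The promoters of a few genes that carry the comparison are shown first. Pf4, Mmrn1 and Itga2b are platelet genes and fell on both exits, while Cd48 rose on both. Each line gives the 250 bases before the transcription start from the RefSeq promoter table (build GRCm38.p6), 5′ to 3′ on the strand of the gene, with matches to 3 motifs of 6 bases in capitals.
Pf4 (chr5:90772185-90772434, plus strand): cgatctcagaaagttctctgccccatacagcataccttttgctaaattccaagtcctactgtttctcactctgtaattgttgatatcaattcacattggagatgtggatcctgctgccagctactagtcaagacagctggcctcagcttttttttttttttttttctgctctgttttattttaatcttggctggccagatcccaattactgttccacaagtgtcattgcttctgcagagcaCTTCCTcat
Mmrn1 (chr6:60944067-60944316, plus strand): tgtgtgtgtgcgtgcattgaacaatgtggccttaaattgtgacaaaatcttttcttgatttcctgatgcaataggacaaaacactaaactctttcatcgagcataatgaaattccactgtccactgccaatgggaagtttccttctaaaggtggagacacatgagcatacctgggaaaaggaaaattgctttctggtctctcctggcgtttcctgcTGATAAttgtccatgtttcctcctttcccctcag
Itga2b (chr11:102469884-102470133, minus strand): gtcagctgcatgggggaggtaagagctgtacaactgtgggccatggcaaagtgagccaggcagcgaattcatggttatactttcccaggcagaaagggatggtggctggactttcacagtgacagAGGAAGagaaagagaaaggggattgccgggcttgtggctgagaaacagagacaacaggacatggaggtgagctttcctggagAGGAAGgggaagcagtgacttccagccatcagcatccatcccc
Cd48 (chr1:171681742-171681991, plus strand): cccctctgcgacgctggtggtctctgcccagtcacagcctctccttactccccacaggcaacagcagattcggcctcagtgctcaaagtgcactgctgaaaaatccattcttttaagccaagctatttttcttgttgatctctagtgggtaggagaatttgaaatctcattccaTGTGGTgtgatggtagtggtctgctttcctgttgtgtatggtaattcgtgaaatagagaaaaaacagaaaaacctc
The GATA motif was searched for as the letters AGATAA, as the variant TGATAA, and as both of these with a closing G in place of the last A, the ETS motif as AGGAAG and the RUNX motif as TGTGGT, each on both strands, and the match of Mmrn1 is GATA, those of Pf4 and Itga2b are ETS and that of Cd48 is RUNX. Beyond the printed stretch, in the first 50 bases after the start, Pf4 has a GATA match at base 37 and Cd48 an ETS match at base 26. Tgm2 is named only. Over the 300-base windows, a GATA match was present in 21.7% of the 327 lost genes with an entry and in 17.7% of 226 gained genes, against 22.3% of the 14368 tested genes and 30.2% of all 27025 promoters in the table. The corresponding shares were 32.1%, 39.4%, 33.6% and 35.1% for ETS, 11.6%, 13.3%, 13.6% and 16.9% for RUNX, and 8.26%, 10.6%, 9.04% and 7.24% for the MYC E-box (CACGTG, palindromic). The lost genes held each of these motifs at a slightly lower share than the tested genes, and the gained genes had a higher share for ETS and the E-box alone. A match in such a window describes letters, not binding.

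How much did HSC differ from both progenitors together? Of the 18193 genes, 2998 (16.5%) differed on the average at an adjusted p under 0.05 in limma, 1698 (9.33%) higher and 1300 (7.15%) lower in HSC. On the MPP exit 2058 genes were called (11.3%), 897 higher (4.93%) and 1161 lower (6.38%), and on the PreMegE exit 5255 (28.9%), 3088 higher (17.0%) and 2167 lower (11.9%). MPP and PreMegE themselves differed in 6003 genes (33.0%). The MPP split turned with the scaling, to 1216 higher and 972 lower after quantile normalisation and 1189 and 1045 after cyclic loess. Both exits share the HSC arrays, so each exit's own values are given side by side.

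Genes called in the same direction on each exit were a minority of those called on the average. Of the 1698 genes higher in HSC on the average, 395 (23.3%) were higher on both exits, 1112 were so called only against PreMegE, 175 only against MPP and 16 against neither. Among the 1300 lower genes, 276 (21.2%) were lower on both exits, 770 only against PreMegE, 234 only against MPP and 20 against neither. The average also took in genes that moved oppositely on an exit. Of the 1698 higher genes, 50 were called lower than in MPP and 10 lower than in PreMegE, and of the 1300 lower genes, 19 were called higher than in MPP and 28 higher than in PreMegE. Of all genes tested, 2.17% were thus lost on both exits and 1.52% gained. After quantile normalisation the lost and gained counts were 523 and 233, and after cyclic loess 513 and 245, a wider split than 395 and 276. With PreMegE 3 and 4 averaged as 1 sample they were 456 and 283, and 386 and 256 of the genes were shared.

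**Figure D1:**
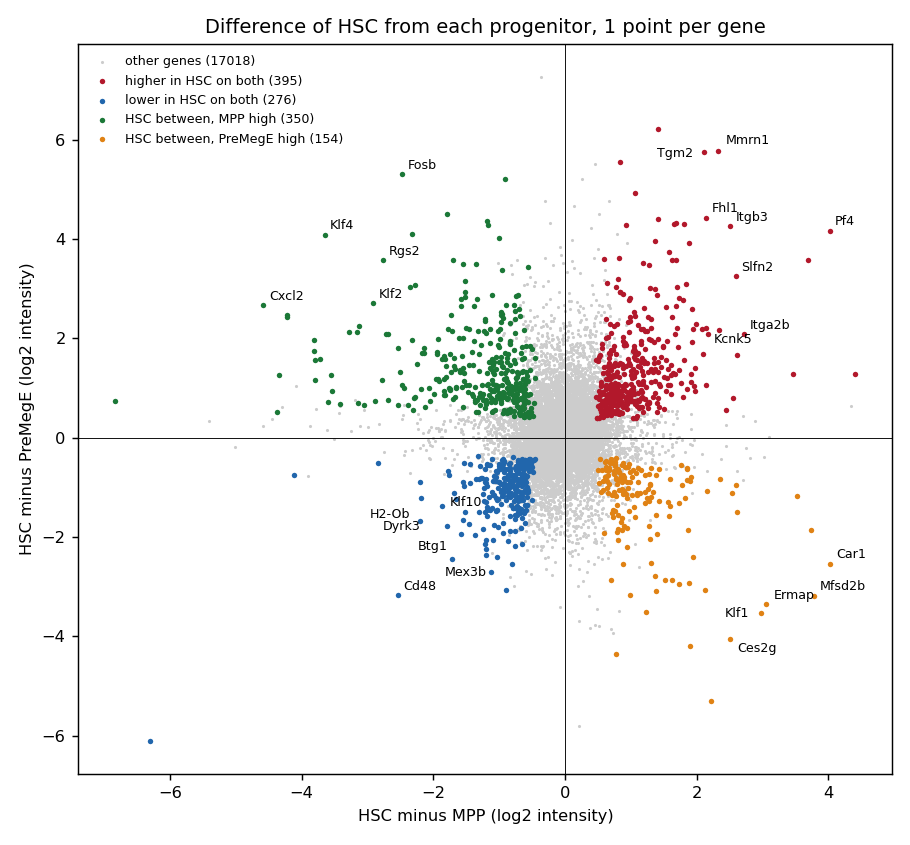
Difference of HSC from MPP (x axis) and from PreMegE (y axis) in log2 intensity, 1 point per gene, with the 395 genes higher and the 276 lower in HSC on both exits, the 350 and 154 genes with HSC between the progenitors, and the other 17018 genes in grey. Pf4 is farthest out along the diagonal among the named lost genes, at 4.02 and 4.16, and the lone point at the lower left is Xist.

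Lost genes were of moderate level in HSC, with a median of 7.32 in HSC, 6.14 in MPP and 5.69 in PreMegE, and their median differences were 0.95 on the MPP exit and 1.13 on the PreMegE exit. At least a 2-fold difference on each exit was reached by 134 of the 395, and in 370 every HSC array lay above all 7 progenitor arrays, against 876 such genes (4.82%) among all tested. The progenitors were not called apart in 236 of the 395, MPP was above PreMegE in 129 and below it in 30. Gained genes moved less: the medians were 7.04 in HSC, 7.96 in MPP and 8.15 in PreMegE, 46 of 276 reached 2-fold on each exit, and 253 had every HSC array below all 7 progenitor arrays, against 626 (3.44%) of all genes. In bulk samples such as these, fewer cells that carry a transcript and less RNA per cell cannot be told apart.

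These sets depended on single arrays. In every analysis that left out any 1 of the 10 arrays, 182 of the 395 lost genes (46.1%) and 90 of the 276 gained genes (32.6%) stayed called on both exits. Leaving out MPP 3 took the counts to 250 lost and 136 gained, HSC 2 took the gained count to 126, and MPP 1 to 147. With HSC 1 as the lone HSC array 393 of the 395 and 275 of the 276 kept their direction on both exits. HSC 1 helped to choose these genes, and every HSC array lay beyond all 7 progenitor arrays in 370 and 253 of them. Their direction with HSC 1 alone was thus largely fixed in advance. Of the 29 named lost genes 25, and of the 18 named gained genes 16, stayed called on both exits without any 1 array, the exceptions being Mecom, H2-Aa, Dnmt3a and Sqle, and H2-Oa and Nolc1. A next brightest probe set exists for 249 lost and 179 gained genes, and it pointed the same way on both exits for 141 (56.6%) and 103 (57.5%), against 27.9% and 27.1% of all 9010 genes with such a probe set.

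Platelet transcripts led the lost genes. Pf4, a chemokine stored in platelet granules, read 10.64, 10.88 and 11.09 on the HSC arrays, 7.04, 6.55 and 6.95 on the MPP arrays and 6.71, 6.99, 6.70 and 6.41 on the PreMegE arrays. All 3 HSC arrays lay far above the 7 progenitor arrays, which overlapped one another. The difference was 4.02 ± 0.22 (SE of the limma fit, here and below) on the MPP exit and 4.16 ± 0.21 on the PreMegE exit, 4.09 ± 0.19 on the average (adjusted p = 4.64e-09), and MPP and PreMegE were not called apart (adjusted p = 0.661).

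Mmrn1, which encodes multimerin 1, a granule protein that binds coagulation factor V, read 9.50, 9.64 and 10.02 in HSC, 7.34, 7.43 and 7.40 in MPP and 4.29, 3.58, 4.0 and 3.92 in PreMegE. Here the 3 groups formed separate steps, with HSC highest and PreMegE lowest and no overlap. The exits were 2.33 ± 0.18 and 5.77 ± 0.17, the average 4.05 ± 0.16 (adjusted p = 1.23e-09), and the progenitors differed from each other (adjusted p = 6.07e-10). Its next brightest probe set gave an average of only 0.06 (adjusted p = 0.89), so the 2 probe sets of Mmrn1 disagree.

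Tgm2, a transglutaminase that cross-links proteins, showed the same 3 steps, with 12.17, 11.90 and 11.74 in HSC, 9.86, 9.80 and 9.82 in MPP and 5.90, 6.16, 6.61 and 6.04 in PreMegE. The HSC level was higher than in MPP by 2.11 ± 0.30 and than in PreMegE by 5.76 ± 0.28 (average 3.93 ± 0.26, adjusted p = 1.26e-07), with MPP above PreMegE (adjusted p = 8.8e-08). A further probe set of Tgm2 gave an average of 3.86 (adjusted p = 6.93e-07). The PreMegE level of Tgm2 was near that of the T cells, at 6.09.

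The fibrinogen receptor of platelets pairs the integrins encoded by Itga2b and Itgb3. Itga2b read 10.63, 10.45 and 10.53 in HSC, 7.88, 7.70 and 7.89 in MPP and 8.14, 8.32, 8.82 and 8.52 in PreMegE, so that both progenitors lay well below HSC and PreMegE lay slightly above MPP. The exits were 2.72 ± 0.18 and 2.09 ± 0.17 (average 2.40 ± 0.15, adjusted p = 9.95e-08) and the progenitors differed (adjusted p = 0.00761). The product of Itga2b is CD41, which the PreMegE gate excluded, so its PreMegE exit is partly fixed by the sort, whereas CD41 was no part of the HSC and MPP gates. Itgb3 read 8.58, 8.10 and 7.43, then 5.32, 5.0 and 6.26, then 3.49, 4.01, 3.69 and 3.90 in the same order, without overlap (average 3.39 ± 0.26, adjusted p = 5.29e-07). T cells had 9.11 for Itgb3, above HSC, and its next brightest probe set gave 0.23 (adjusted p = 0.529).

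Von Willebrand factor, the plasma protein that tethers platelets, gave a steeper step to MPP than to PreMegE. Vwf read 8.72, 8.46 and 8.52 in HSC, 4.39, 4.18 and 3.90 in MPP and 6.87, 7.22, 7.88 and 7.21 in PreMegE. HSC were highest, PreMegE intermediate and MPP lowest, with no overlap. The differences were 4.41 ± 0.21 on the MPP exit and 1.27 ± 0.20 on the PreMegE exit, and PreMegE were above MPP (adjusted p = 9.46e-09). Gp1bb, Gp5 and Gp9, which encode some of the subunits of the receptor for this factor, were ordered alike. From MPP and PreMegE Gp1bb differed by 3.47 ± 0.20 and 1.28 ± 0.19, Gp5 by 2.56 ± 0.24 and 0.79 ± 0.22, and Gp9 by 1.44 ± 0.15 and 0.62 ± 0.14. Gp5 did not stay called on both exits without every array in turn.

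On the list of 34 measured megakaryocyte and platelet genes, 23 were higher and 1 lower in HSC on the average, beside 9.33% and 7.15% of all genes. On both exits 17 (50%) were lost, where all tested genes gave 2.17%. The list's median difference was 1.03 on the average, 1.09 on the MPP exit and 0.76 on the PreMegE exit, against 0.02, 0.03 and 0.01 over all genes. Besides those above, the lost members were the chemokine Ppbp, the chaperone Clu, the platelet receptors Clec1b and Treml1, the tetraspanin Cd9, the aggregation receptor Pear1, the ATP-gated channel P2rx1, the platelet tubulin Tubb1 and the thromboxane synthase Tbxas1. Their average differences ran from 0.53 ± 0.14 for Clec1b, which was near the lower quartile of intensity in every group, to 1.70 ± 0.12 for Cd9. Without any 1 array 11 of the 17 stayed called on both exits, and 11 were called with HSC 1 as the lone HSC array, while on the next brightest probe set 3 of 17 measured members were lost. Not every gene of the lineage took part: the regulator Gata1 was 9.65, 9.35 and 9.44 in HSC, 5.92 to 6.01 in MPP and 10.48 to 10.96 in PreMegE, so HSC lay between, and the collagen receptor Gp6 was 2.82 to 3.44 on all 10 arrays (average -0.09, adjusted p = 0.816).

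**Figure D2:**
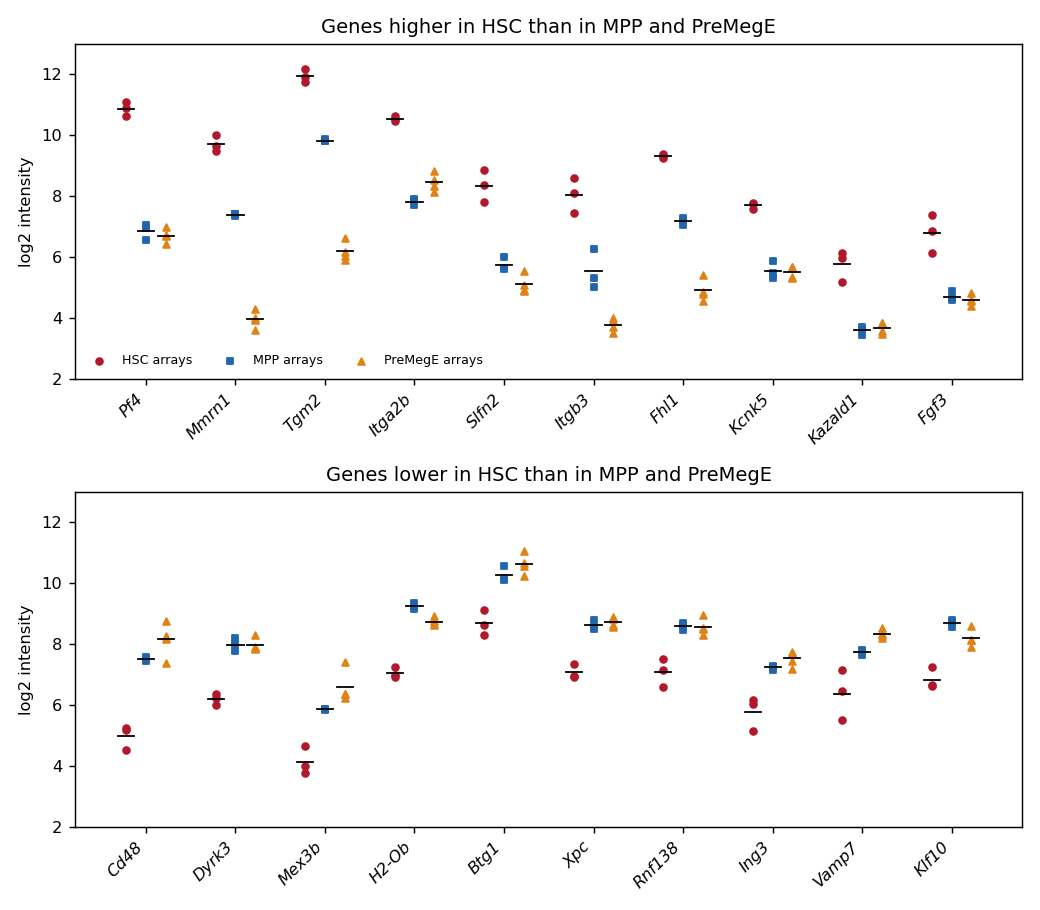
Log2 intensity on each array (points) and group mean (bars) of the 10 genes lost and the 10 gained on both exits with the largest smaller exit. Only genes whose HSC points do not overlap any of the 7 progenitor points were eligible, so that separation was fixed by the choice. Mmrn1, Tgm2, Fhl1 and Itgb3 fall in steps from HSC through MPP to PreMegE. Pf4, Kcnk5 and Fgf3 end at a like level in both progenitors.

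The other named lost genes split into those whose progenitors were level and those that fell in steps. Kcnk5, a background potassium channel, read 7.76, 7.59 and 7.73 in HSC, 5.87, 5.30 and 5.47 in MPP and 5.33, 5.30, 5.68 and 5.66 in PreMegE, and its exits were 2.15 ± 0.17 and 2.20 ± 0.16. The HSC arrays were tight and the 7 progenitor arrays overlapped, with no call between them (adjusted p = 0.848), but the next brightest probe set of Kcnk5 gave -0.08 (adjusted p = 0.86). Kazald1, a secreted protein with a Kazal protease-inhibitor domain, read 6.11, 5.97 and 5.19 in HSC and 3.44 to 3.82 on all 7 progenitor arrays (average 2.13 ± 0.18). Fgf3, a fibroblast growth factor, read 6.13, 6.85 and 7.37 in HSC and 4.40 to 4.87 in the progenitors (average 2.14 ± 0.20), so the HSC arrays of both genes were more spread than the progenitor arrays.

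Slfn2, a Schlafen family gene known for keeping T cells quiescent, read 8.86, 8.36 and 7.82 in HSC, 5.64, 6.00 and 5.61 in MPP and 5.53, 5.08, 4.88 and 4.91 in PreMegE. HSC lay above both progenitors on every array, and T cells lay higher still, at 11.09. Slfn2 differed by 2.60 ± 0.24 and 3.25 ± 0.22 on the exits (average 2.92 ± 0.20, adjusted p = 1.83e-07). Fhl1, a LIM domain protein encoded on the X chromosome, stepped from 9.33, 9.25 and 9.39 in HSC to 7.04 to 7.27 in MPP and 4.56 to 5.42 in PreMegE (average 3.29 ± 0.16, adjusted p = 6.05e-09), with -0.11 (adjusted p = 0.716) on its next brightest probe set. The 3 HSC arrays were close to each other on Fhl1, although they differed in Xist.

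Stem cell regulators were lost to different extents on the exits. Of 28 measured stem cell transcription factors, 14 were higher and 1 lower on the average, beside 9.33% and 7.15% of all genes. On both exits 7 (25%) were lost, beside 2.17% of all genes: Mecom, Prdm16, Gata3, Meis1, Tcf15, Hoxb5 and Mycn. Without any 1 array 5 of these 7 stayed called on both exits, the exceptions being Mecom and Gata3. Mecom, a zinc finger factor needed for HSC maintenance, read 9.76, 9.48 and 9.92 in HSC, 8.80, 8.84 and 9.02 in MPP and 4.35, 3.61, 4.65 and 4.09 in PreMegE. Its MPP exit was small (0.83 ± 0.23, adjusted p = 0.0267) beside its PreMegE exit (5.55 ± 0.21), and Mecom did not stay called on both exits without every array in turn. Prdm16, a related factor, had a larger MPP exit, with 7.98, 8.09 and 8.35 in HSC, 6.53, 6.01 and 6.82 in MPP and 5.31 to 5.67 in PreMegE (1.69 ± 0.24 and 2.65 ± 0.23). The next brightest probe sets of Mecom and Prdm16 gave averages of 0.08 (adjusted p = 0.875) and 0.21 (adjusted p = 0.657).

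Meis1, a cofactor of Hox proteins, was bright in all 3 populations, at 11.18, 11.44 and 11.54 in HSC, 10.24 to 10.39 in MPP and 9.47 to 10.17 in PreMegE, and the exits were 1.05 ± 0.20 and 1.62 ± 0.19. Mycn, a MYC family factor, went the other way round, with 10.44, 10.88 and 11.01 in HSC, 8.12 to 8.19 in MPP and 8.86 to 9.73 in PreMegE (2.61 ± 0.22 and 1.66 ± 0.21), so it was lower in MPP than in PreMegE (adjusted p = 0.00187), but its next brightest probe set gave an average of 0.14 (adjusted p = 0.707). Hlf, a PAR-domain factor often used to mark HSC, was lost on only 1 exit: it read 10.76, 10.75 and 10.65 in HSC, 10.43, 10.42 and 10.54 in MPP and 5.26 to 5.93 in PreMegE. Its average of 2.74 ± 0.14 came from the PreMegE exit (5.22 ± 0.16), while the MPP exit of 0.26 ± 0.17 was not called (adjusted p = 0.433). On the next brightest probe set 1 of 17 factors was lost on both exits, and with HSC 1 as the lone HSC array 4 of 28.

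Of 31 surface receptors and adhesion molecules used for HSC, 18 were higher and 1 lower on the average, beside 9.33% and 7.15% of all genes. On both exits 8 (25.8%) were lost and 1 (3.23%) gained, beside 2.17% and 1.52% of all genes. The lost ones were Tie1, Esam, Itga6, Itgb3, Itga2b, Cd9, Jam3 and Abcb1a. Without any 1 array 5 of these 8 stayed called on both exits, the exceptions being Tie1, Jam3 and Abcb1a. Esam, an adhesion molecule of endothelium and HSC, read 7.88, 7.67 and 7.60 in HSC, 6.77 to 7.14 in MPP and 4.32 to 4.80 in PreMegE (exits 0.81 ± 0.17 and 3.19 ± 0.16). Procr, the protein C receptor and a marker of HSC, was 8.38 to 8.62 in HSC, 7.94 to 8.15 in MPP and 2.84 to 3.26 in PreMegE. Although every HSC array of Procr lay above every MPP array, the MPP exit of 0.46 ± 0.15 missed the threshold (adjusted p = 0.0642), and its average of 2.99 ± 0.13 rests on the PreMegE exit.

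The list of 32 other stem cell genes had the largest share lost on both exits, 17 (53.1%), beside 2.17% of all genes. On the average 25 were higher, beside 9.33% of all genes. The list's median average difference was 1.34 (1.18 on the MPP exit and 1.35 on the PreMegE exit). These genes are known from earlier work as higher in HSC than in their progeny, so their direction restates how the list was drawn up. Besides Tgm2, Mmrn1, Fhl1 and Kcnk5, the lost members were Mllt3, Sult1a1, Gda, Nupr1, Pdzk1ip1, Cish, Fgd5, Ndn, Myct1, Trim47, Clu, Ctnnal1 and Cpne8. Fgd5, an exchange factor for Cdc42 and a locus used to label HSC, read 7.41, 7.64 and 7.73 in HSC, 6.05, 5.59 and 6.07 in MPP and 2.97 to 3.42 in PreMegE, where it was at the lower quartile of all genes. The exits of Fgd5 were 1.69 ± 0.17 and 4.32 ± 0.16. In contrast Pdzk1ip1, a small membrane-associated protein, was 8.68 to 8.79 in HSC, 7.34 to 7.67 in MPP and 7.09 to 7.60 in PreMegE, and its progenitors were not called apart (adjusted p = 0.159). Of the 17 lost members, 16 stayed called without any 1 array, and 8 of 19 were lost on the next brightest probe set.

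**Figure D3:**
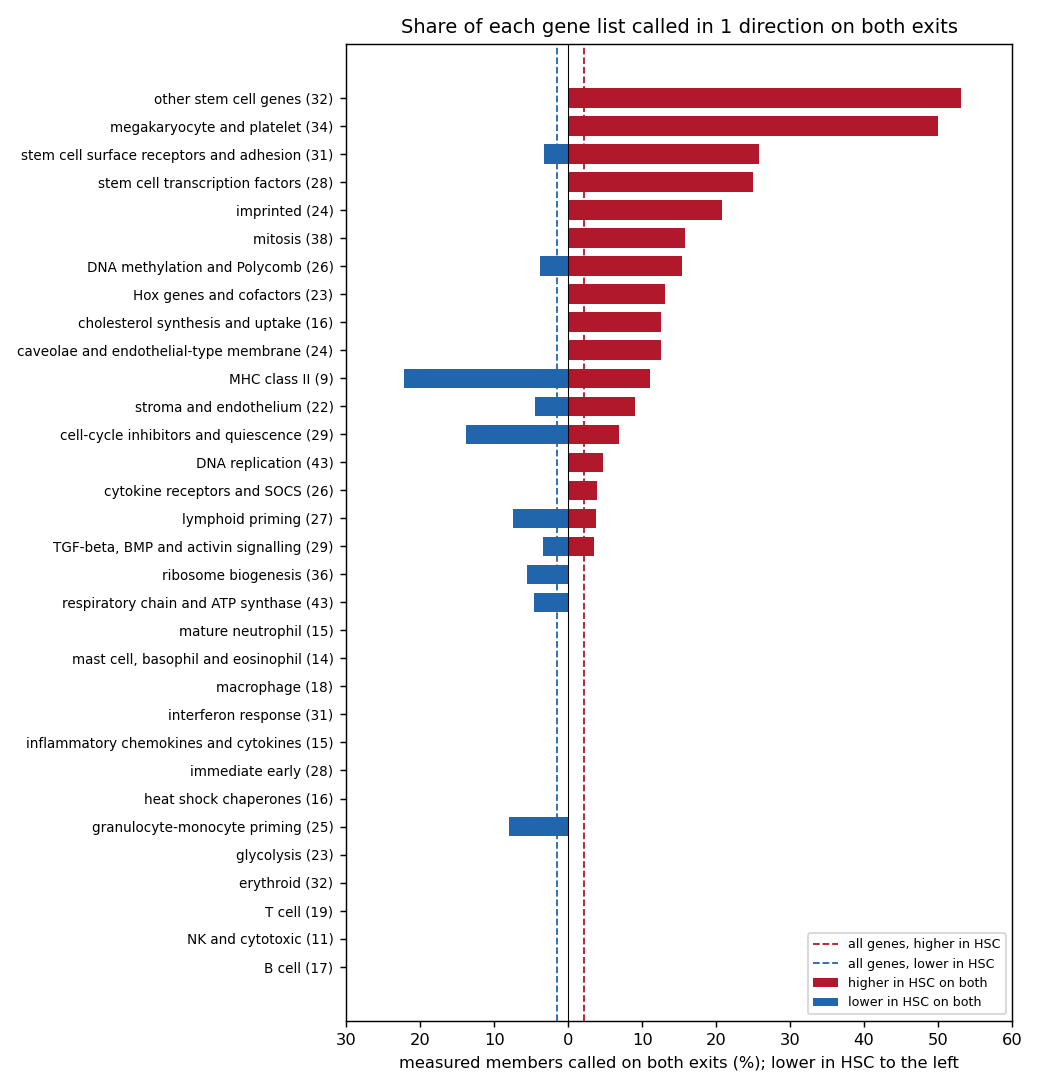
Percentage of the measured members of each gene list (number in brackets) called higher in HSC on both exits (bars to the right) or lower in HSC on both (bars to the left), with dashed lines at the shares of all 18193 genes, 2.17% and 1.52%. The lists of other stem cell genes (53.1%) and of megakaryocyte and platelet genes (50%) reach farthest to the right, and the lists of mature neutrophil, macrophage, B, T and NK cell genes show no bar.

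Among genes of cell-cycle control and imprinting, the lost genes included the inhibitor Cdkn1c and the growth suppressor Ndn, both imprinted. Ndn read 9.05, 9.13 and 9.34 in HSC, 7.32, 7.47 and 7.28 in MPP and 4.60, 4.74, 4.99 and 5.11 in PreMegE, in 3 steps without overlap (average 3.06 ± 0.13, adjusted p = 3.2e-09). Cdkn1c, which encodes the cyclin-dependent kinase inhibitor p57, read 6.93, 5.88 and 6.82 in HSC, 4.77 to 5.05 in MPP and 2.81 to 3.22 in PreMegE (average 2.60 ± 0.19, adjusted p = 3.58e-07). The maternally expressed RNA Meg3 gave 2.27 ± 0.23 on the average (adjusted p = 7.94e-06), but 0.06 on its next brightest probe set (adjusted p = 0.905). On the imprinted list 5 of 24 measured genes (20.8%) were lost on both exits, beside 2.17% of all genes, the others being Phlda2 and Ppp1r9a. On the average 8 were higher, beside 9.33% of all genes. The lost count of that list fell to 3 without HSC 3, MPP 1 or PreMegE 2 and to 2 with HSC 1 as the lone HSC array.

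Not all genes that restrain division were lost. Of 29 inhibitors and quiescence genes, 6 were higher and 8 lower in HSC on the average, beside 9.33% and 7.15% of all genes. On both exits 2 (6.9%) were lost and 4 (13.8%) gained, beside 2.17% and 1.52% of all genes. The gained genes of this list were Ccng2, Btg1, Mxd4 and Hexim1. Without HSC 1 only 3 were higher, and without HSC 2 only 5 lower, on the average. The gained count was 2 after quantile or cyclic loess normalisation and without HSC 1, MPP 1 or MPP 3. Cdkn1a, the inhibitor p21, was high in MPP alone: it read 6.90, 5.72 and 5.34 in HSC, 9.34, 9.69 and 9.46 in MPP and 5.76 to 6.26 in PreMegE, with exits of -3.51 ± 0.32 and -0.03 ± 0.30 (adjusted p = 0.957). A further 6 members, Cdkn2d, Btg2, Gadd45b, Nr4a1, Klf2 and Klf4, were highest in MPP and lowest in PreMegE, beside 1.92% of all genes.

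Mitotic transcripts were more often higher than lower in HSC. Of 38 measured mitosis genes, 11 were higher and 1 lower in HSC on the average, beside 9.33% and 7.15% of all genes. On both exits 6 (15.8%) were lost, beside 2.17% of all genes: Aurka, Plk1, Kif2c, Prc1, Hmmr and Ccnf. Without any 1 array 3 of these 6 stayed called on both exits, Aurka, Kif2c and Ccnf. On the next brightest probe set 2 of 27 measured members were lost. The list's median was 0.34 on the average, 0.01 on the MPP exit and 0.69 on the PreMegE exit. Aurka, a kinase of the spindle poles, read 8.72, 8.36 and 8.30 in HSC, 7.26, 7.84 and 7.40 in MPP and 5.71 to 6.36 in PreMegE, highest in HSC on every array (exits 0.96 ± 0.20 and 2.33 ± 0.19), while its next brightest probe set gave an average of 0.00 (adjusted p = 0.996). Mki67, the usual marker of cycling cells, was 10.78, 10.79 and 11.22 in HSC, 10.26 to 10.42 in MPP and 10.33 to 11.26 in PreMegE, and did not pass the test on the average (0.27 ± 0.19, adjusted p = 0.42). Among 43 DNA replication genes, 11 were higher and 1 lower on the average, beside the same 9.33% and 7.15% of all genes. On both exits 2 were lost, Rrm2 and Ccne1 (4.65%, beside 2.17% of all genes). That lost count was 1 without HSC 2 or any of the MPP arrays. The higher count of replication genes fell to 6 without HSC 2 and the lower count rose to 4 without HSC 3, and with HSC 1 as the lone HSC array 2 of 38 mitosis genes were lost and 2 of 43 replication genes were higher. On the PreMegE exit the study of origin cannot be told apart from cell type, the beta-actin ratio differed and that of Gapdh overlapped, and the part of these ratios in the counts was not tested.

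Among the genes gained on both exits, Cd48, a SLAM family receptor that was not in the gates, came first. It read 5.26, 4.53 and 5.17 in HSC, 7.45, 7.52 and 7.58 in MPP and 7.40, 8.18, 8.28 and 8.76 in PreMegE. All HSC arrays lay well below the lowest progenitor array, and the progenitors were not called apart (adjusted p = 0.0686). The exits were -2.53 ± 0.27 and -3.17 ± 0.25, and the average -2.85 ± 0.23 (adjusted p = 1.09e-06). T cells had more, 10.22.

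H2-Ob, the beta chain of a protein that restrains peptide loading on MHC class II, read 6.92, 7.26 and 7.0 in HSC, 9.16, 9.36 and 9.27 in MPP and 8.77, 8.65, 8.93 and 8.62 in PreMegE. HSC were lowest and MPP highest, with exits of -2.20 ± 0.16 and -1.68 ± 0.15 and a difference between the progenitors (adjusted p = 0.0121). Its partner H2-Oa was gained too (-0.68 ± 0.19 and -1.51 ± 0.18), though not in every leave-out analysis. The classical class II gene H2-Aa was lost on both exits, at 8.94, 10.20 and 9.39 in HSC, 8.64 to 8.74 in MPP and 5.72 to 6.23 in PreMegE. Its MPP exit was small (0.82 ± 0.25, adjusted p = 0.0455) and missed the threshold on its next brightest probe set (0.85, adjusted p = 0.0582). Of 9 measured class II genes, 2 were higher and 3 lower on the average, beside 9.33% and 7.15% of all genes. On both exits 1 (11.1%) was lost and 2 (22.2%) gained, beside 2.17% and 1.52% of all genes. The highest H2-Aa level was on HSC 2, the array that also had the highest Ighm and Ngp of the HSC arrays.

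Btg1, an antiproliferative partner of the mRNA deadenylase complex, read 8.31, 8.64 and 9.12 in HSC, 10.58, 10.14 and 10.10 in MPP and 11.05, 10.56, 10.67 and 10.24 in PreMegE. The progenitors overlapped each other and lay above every HSC array (average -1.76 ± 0.20, adjusted p = 2.17e-05). With the mean of all its probe sets the PreMegE exit of Btg1 was -0.34 (adjusted p = 0.11). Xpc, which recognises DNA lesions for nucleotide excision repair, read 6.92 to 7.33 in HSC and 8.49 to 8.88 on the 7 progenitor arrays (average -1.60 ± 0.14). Dyrk3, a kinase that dissolves stress granules, read 6.01 to 6.35 in HSC and 7.77 to 8.28 in the progenitors (average -1.78 ± 0.15). Both had narrow HSC ranges and exits that differed little.

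The HSC arrays of Vamp7 and Ing3 were spread widely (SD 0.83 and 0.55, n = 3). Vamp7, a SNARE of late vesicles, read 6.46, 5.50 and 7.15 in HSC, 7.64 to 7.80 in MPP and 8.21 to 8.53 in PreMegE (average -1.67 ± 0.24, or -0.73, adjusted p = 0.105, on its next brightest probe set). Ing3, a subunit of a histone acetyltransferase complex, read 6.02, 5.15 and 6.18 in HSC and 7.17 to 7.75 in the progenitors (-1.60 ± 0.21), but its next brightest probe set gave 0.84 on the PreMegE exit (adjusted p = 0.00997). HSC 2 was the lowest array of both genes. Mex3b, an RNA-binding ubiquitin ligase, differed by -2.08 ± 0.26, the zinc finger factor Klf10 by -1.62 ± 0.26 and the ubiquitin ligase Rnf138 by -1.50 ± 0.20, and the PreMegE exit of Rnf138 missed the threshold on its next brightest probe set (-0.83, adjusted p = 0.0559).

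Most lineage priming genes were not called in the same direction on both exits, although the gained shares, 7.41% of the lymphoid and 8% of the granulocyte-monocyte list, were above the 1.52% of all genes. Of 27 lymphoid priming genes, 3 were higher and 11 lower in HSC on the average, beside 9.33% and 7.15% of all genes. On both exits 2 were gained, Satb1 and Ikzf1. Mef2c was lost (3.7% of the list, beside 2.17% of all genes), though not without HSC 2. Satb1, a chromatin organiser of lymphoid development, read 5.68, 5.68 and 5.64 in HSC, 9.82, 9.78 and 9.77 in MPP and 6.45, 6.09, 6.92 and 6.20 in PreMegE. The gain to MPP was large and that to PreMegE small (-4.12 ± 0.18 and -0.75 ± 0.17). The next brightest probe set of Satb1 gave -3.03 on the MPP exit but 1.12 on the PreMegE exit (adjusted p = 0.000819), the opposite direction. Ikzf1, which encodes Ikaros, was level in the progenitors, at 9.06, 9.14 and 9.69 in HSC, 10.47 to 10.67 in MPP and 10.65 to 10.98 in PreMegE (average -1.40 ± 0.15), with 0.08 (adjusted p = 0.89) on its next brightest probe set. Over all genes, 1.92% had HSC between a high MPP and a low PreMegE level. Of 25 granulocyte-monocyte genes, Plac8 and Cst7 were gained on both exits and 9 had HSC between a high MPP and a low PreMegE level, which fell to 3 with HSC 1 as the lone HSC array.

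Erythroid genes showed the opposite order, which 0.846% of all genes had. None of 32 was lost or gained on both exits in limma (0 and 1 at an unadjusted p under 0.05 on each exit), while 12 had HSC between a high PreMegE and a low MPP level, or 7 with HSC 1 as the lone HSC array. Klf1, the erythroid Krüppel-like factor, read 7.65, 7.81 and 8.03 in HSC, 4.94, 4.75 and 4.87 in MPP and 11.03, 11.19, 11.79 and 11.45 in PreMegE. HSC stood about midway, apart from each progenitor in opposite directions (2.98 ± 0.21 and -3.54 ± 0.19), and the average of -0.28 ± 0.18 was not called (adjusted p = 0.365). Mfsd2b, which carries the lipid signal sphingosine-1-phosphate out of red cells and platelets, behaved alike, at 7.26 to 7.44, 3.33 to 3.80 and 10.31 to 10.89 (3.78 ± 0.19 and -3.18 ± 0.18), and its average was 0.30 ± 0.16 (adjusted p = 0.254). Its next brightest probe set gave an average of -1.06. Ermap, Car1 and Ces2g completed the 5 genes with the largest such pattern.

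In all, 154 genes (0.846%) had HSC between a high PreMegE and a low MPP, and 350 (1.92%) between a high MPP and a low PreMegE. The equal-weight average hides such genes. Klf4, a Krüppel-like factor of the immediate early kind, read 7.94, 6.85 and 6.42 in HSC, 10.71, 10.83 and 10.61 in MPP and 2.93, 2.78, 2.93 and 3.29 in PreMegE. Its exits were -3.65 ± 0.34 and 4.09 ± 0.31 and the average 0.22 ± 0.28 (adjusted p = 0.719), or -1.01 on its next brightest probe set (adjusted p = 0.00166). Klf2 was the least even of them in HSC, at 8.50, 5.72 and 5.23, and its average of -0.10 became -1.11 without HSC 1 (adjusted p = 0.00306) and 1.91 with HSC 1 as the lone HSC array. Of 28 immediate early genes 18 followed this order. The list's median level was 8.43, 7.20 and 6.72 on HSC 1, 2 and 3, 9.77 to 9.93 in MPP and 5.10 to 5.40 in PreMegE. Immediate early genes are known to respond within minutes when cells are handled. On the PreMegE exit of this list the study of origin differs as well and cannot be told apart from cell type, and the part of the higher beta-actin ratio there was not tested. HSC and MPP came from 1 study and their beta-actin ratios overlapped.

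**Figure D4:**
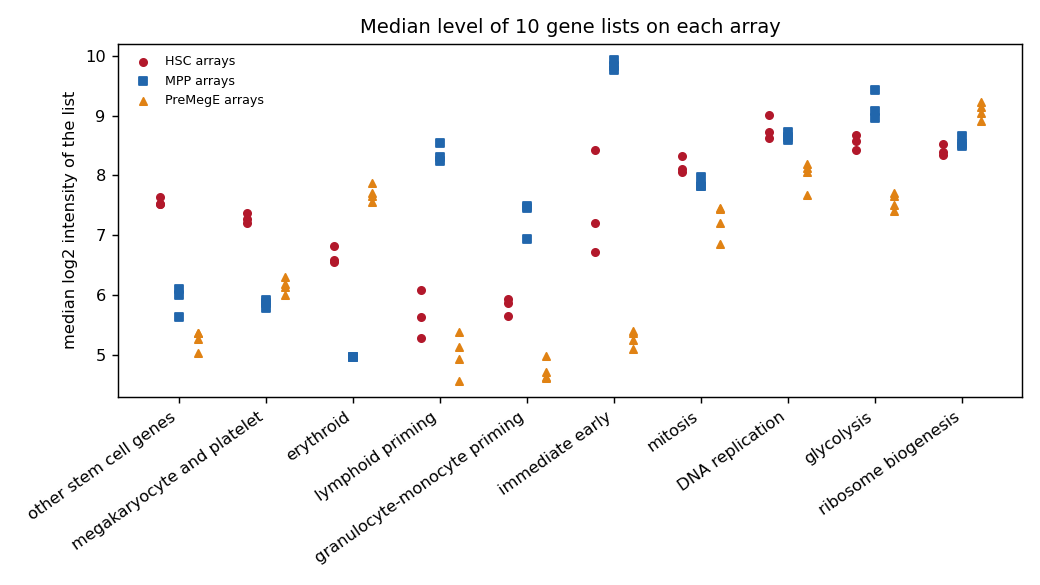
Median log2 intensity of 10 gene lists on each of the 10 arrays. The HSC arrays are highest for the stem cell and megakaryocyte lists, MPP for the lymphoid, granulocyte-monocyte, glycolysis and immediate early lists, and PreMegE for the erythroid and ribosome biogenesis lists; the HSC arrays spread from 6.72 to 8.43 on the immediate early list.

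Some averages therefore came wholly or mostly from 1 exit. Fos had an average of 3.44 ± 0.32, with -0.37 ± 0.38 against MPP (adjusted p = 0.658) and 7.26 ± 0.36 against PreMegE. Dntt, which adds nucleotides at antigen receptor joints, had an average of -3.05 ± 0.20, made of -6.83 ± 0.24 and 0.74 ± 0.22. The second was called in the opposite direction (adjusted p = 0.0192). Cavin2, a caveolar coat protein, had 2.49 ± 0.27, from 4.35 ± 0.32 and 0.63 ± 0.30, the second not called (adjusted p = 0.136). The inflammatory chemokines Ccl9 and Ccl3 were lower in HSC on average by -2.60 ± 0.22 and -2.54 ± 0.16, all of it on the MPP exit (-5.02 ± 0.26 and -5.41 ± 0.19), and Ccl9 missed the threshold on its next brightest probe set (-0.29, adjusted p = 0.378).

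More genes of ribosome biogenesis and of the respiratory chain were lower than higher in HSC on the average, though most were not called. Called genes of glycolysis and cholesterol synthesis were all higher on the average. Except for cholesterol synthesis, the exits of these lists were not alike. On the PreMegE exit study and cell type cannot be told apart. Over all genes, 7.15% were lower and 9.33% higher on the average. These shares were 6.38% and 4.93% on the MPP exit and 11.9% and 17.0% on the PreMegE exit. Of 36 ribosome biogenesis genes, 12 were lower and 1 higher on the average, with a median of -0.25. On the MPP exit 2 were lower and 2 higher, and on the PreMegE exit 18 were lower and 1 higher. Nolc1 and Pno1 (5.56%) were gained on both exits, against 1.52% of all genes. Of 43 respiratory chain and ATP synthase genes, 10 were lower and 2 higher on the average, with a median of -0.13. On the MPP exit 7 were lower and 0 higher, and on the PreMegE exit 11 were lower and 11 higher. Ndufs8 and Sdhb (4.65%) were gained on both exits. In each list 1 of these 2 genes stayed called without any 1 array. Without HSC 2 the lower counts of the 2 lists on the average fell to 7 and 3. Nolc1, a nucleolar chaperone, differed by -1.10 ± 0.14 but by 0.81 on its next brightest probe set (adjusted p = 0.0537). That probe set gave 1.15 on the PreMegE exit (adjusted p = 0.00749), opposite to the call. Sdhb, a subunit of succinate dehydrogenase, read 8.47 to 8.81 in HSC, 9.20 to 9.54 in MPP and 9.09 to 9.56 in PreMegE (-0.69 ± 0.14), a small difference without overlap.

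Of 23 glycolysis genes 6 were higher and 0 lower in HSC on the average, beside 9.33% and 7.15% of all genes. On the MPP exit, however, 0 were higher and 5 lower, beside 4.93% and 6.38% of all genes. On the PreMegE exit 14 were higher and 1 lower, beside 17.0% and 11.9% of all genes. HSC lay between a high MPP and a low PreMegE level in 4 of the list, beside 1.92% of all genes: Hk2, Hk3, Pgam1 and Pkm. This count was 2 without HSC 1, HSC 2 or any of the MPP arrays. Without HSC 3, 1 glycolysis gene was lower on the average. Of 16 cholesterol synthesis and uptake genes 6 were higher and 0 lower, or 1 higher with HSC 1 as the lone HSC array, and Sqle and Idi1 were lost on both exits. Sqle and Idi1 are 12.5% of the list, beside 2.17% of all genes lost on both exits. The lost count of this list was 0 without HSC 1, HSC 3, MPP 2 or MPP 3 and 1 without HSC 2 or MPP 1. Of 26 DNA methylation and Polycomb genes, 5 were higher and 7 lower on the average. On both exits Dnmt3a, Tet1, Cbx7 and Asxl1 (15.4%) were lost and Ring1 (3.85%) was gained, beside 2.17% and 1.52% of all genes. Asxl1, a partner of the BAP1 deubiquitinase, read 11.03 to 11.24 in HSC, 9.93 to 10.01 in MPP and 9.58 to 10.20 in PreMegE (1.23 ± 0.14, or -0.17, adjusted p = 0.629, on its next brightest probe set). That lost count of 4 was 2 without HSC 2 or PreMegE 4 and 1 without HSC 3 or any of the MPP arrays, Ring1 was not gained without most single arrays, and the lower count of 7 was 3 without HSC 2 and 4 without MPP 2 or MPP 3.

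Over all genes, 9.33% were higher and 7.15% lower in HSC on the average, and 2.17% were lost on both exits. Among 24 genes of caveolae and endothelial-type membranes, 10 were higher on the average, and Cavin1, Esam and Tie1 (12.5%) were lost on both exits. Cavin1, which coats caveolae, read 7.81, 8.03 and 7.0 in HSC, 5.99 to 6.48 in MPP and 4.49 to 4.80 in PreMegE (exits 1.37 ± 0.23 and 2.99 ± 0.21), and its next brightest probe set gave -0.08 (adjusted p = 0.846). Of 29 TGF-beta, BMP and activin genes, 7 were higher and 3 lower on the average, Inhba was lost on both exits and Skil, a repressor of SMAD signalling, gained (-2.21 ± 0.17 and -0.89 ± 0.16; average -0.24, adjusted p = 0.34, on its next brightest probe set). The single lost and gained genes are 3.45% each of that list, beside 2.17% and 1.52% of all genes, and Inhba was not called on both exits without HSC 2, HSC 3, MPP 1 or MPP 3. The higher count fell to 4 without HSC 2. Only Cish, a feedback inhibitor of STAT5, was lost on both exits among 26 cytokine receptors and SOCS genes (3.85%, beside 2.17% of all genes). It read 8.83, 8.55 and 9.13 in HSC, 7.64 to 7.86 in MPP and 6.12 to 6.52 in PreMegE. Of these 26 genes, 4 were higher and 6 lower on the average. Without HSC 2 these counts were 2 higher and 3 lower, and the higher count was 2 without HSC 3 or MPP 3 as well. Of 23 Hox genes and cofactors 9 were higher, with Hoxb2, Hoxb5 and Meis1 lost on both, or 4 higher with HSC 1 as the lone HSC array.

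Markers of mature blood cells were not called on both exits, on lists so short that the 2.17% lost and 1.52% gained of all genes would give few calls. None of the measured markers of mature neutrophils (15), macrophages (18), B cells (17), T cells (19), NK cells (11) or of mast cells, basophils and eosinophils (14) was lost or gained on both exits in limma, and at an unadjusted p under 0.05 on each exit 1 macrophage and 1 T cell marker were lost and 0 gained. Without HSC 1, however, 3 macrophage markers were lost and 5, rather than 2, were higher on the average, and without HSC 3, 1 neutrophil marker was lost. With HSC 1 as the lone HSC array 1 macrophage marker was gained and 1 of the mast cell, basophil and eosinophil list lost. The summed intensity of the neutrophil list was 545 to 4399 in HSC, 306 to 461 in MPP and 716 to 2530 in PreMegE, with the highest value on HSC 2. For macrophages the sums were 291 to 731, 369 to 414 and 854 to 924, for B cells 439 to 988, 1657 to 2344 and 331 to 1007, and for T cells 504 to 586, 558 to 573 and 377 to 447. In the list of 22 stroma and endothelium genes, Bgn and Angpt1 (9.09%) were lost and Pdgfrb (4.55%) was gained. The sums of this list were 3195 to 3438, 2105 to 2218 and 1777 to 2081. The proteoglycan gene Bgn read 7.78, 8.36 and 8.01 in HSC, 6.09 to 6.53 in MPP and 4.17 to 4.92 in PreMegE, and Angpt1, the ligand of the Tek receptor, 11.27 to 11.32, 10.47 to 10.61 and 9.47 to 10.24, with an average of -0.18 (adjusted p = 0.597) on the next brightest probe set of Angpt1. Angpt1 is also known as a transcript of HSC, and the part of other cells in these genes was not tested.

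By chromosome, the lost share was 1.39% to 3.23% on the autosomes and 2.59% on the X (16 of 617 genes), where 9 genes were gained. On the Y chromosome 2 of 9 genes were lost, Eif2s3y and Kdm5d, and Xist counted among the gained genes (-6.20 ± 1.40 on the average), all 3 with HSC 2 and 3 apart from HSC 1. These 3 calls follow the sex-linked levels of the HSC arrays and are counted in the totals.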

How the data were processed

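The deposited intensity values of 12 mouse arrays (45101 probe sets) were summarised by RMA, per the submitters' processing notes, and lie on a linear scale. RMA subtracts background, forces the probes of the arrays to one distribution and compresses low values. No version is given in the sources used here, nor whether arrays of different studies were normalised together. Values were taken to log2 without an offset. Control probe sets (64) and those with several symbols (932) or none (9160) in the platform annotation were left out; 34945 named 1 gene, 34741 of them with a RefSeq gene ID. The brightest probe set over all arrays stood for each of 18193 genes, and 9010 genes had more than 1.

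limma 3.58.1 (R 4.3.3) fitted a mean per group over all 12 arrays, with Benjamini-Hochberg adjustment over all genes and calls at 0.05. Contrasts were HSC minus the equal-weight mean of MPP and PreMegE, HSC minus each, and MPP minus PreMegE. The steps were tested on simulated data. The number of arrays limits the precision.

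The cells, lists and genes were chosen with earlier results of these data known, so no list is independent support. Named genes are the markers Pf4, Mmrn1 and Tgm2, the sort markers, the 10 lost and 10 gained genes with the largest smaller exit among those without overlap of HSC and progenitor arrays, the 5 of each opposed order, and up to 3 members of each list called on the average with the largest difference; clone names, gene models, Xist and Y-linked genes were left out of all but the sort markers and the 3 markers. Further list members, the receptor subunits and Xist, Eif2s3y, Kdm5d, Ngp and Ighm were named after their values were seen. Alternatives were the scaling, the probe set rule, a filter on dim genes, an offset, the T cell arrays, PreMegE 3 and 4 averaged, the replicate number as a block, each array left out, HSC 1 as the lone HSC array (assumed to vary like the other groups) and equal weight per progenitor array.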

Additional observations from a re-analysis of the deposited data

Results flagged for a closer look

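In 5 of the 110 named genes 1 PreMegE array stood apart from the other 3 by a gap that chance alone gives in about 1 of 20 groups of 4. A count of 5 is about what that rate gives over 110 genes. PreMegE 4 read 8.28 for Dyrk3, where the others read 7.84 to 7.91. PreMegE 3 read 7.40 for Mex3b, against 6.22 to 6.37, and 8.31 for Cst7, against 8.58 to 8.63. PreMegE 1 read 6.03 for Ctsg, against 4.27 to 4.49, and 9.51 for Uqcrfs1, against 9.92 to 9.98. The HSC and MPP groups, with 3 arrays each, are too small for this comparison.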

How the results depend on the processing

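Leaving out 1 array at a time gave 1999 to 3223 genes called on the average (2998), 1280 to 2341 on the MPP exit (2058), 4264 to 5436 on the PreMegE exit (5255), 250 to 477 lost (395) and 126 to 336 gained (276). HSC 1 as the lone HSC array gave 1087, 779, 3395, 160 and 82, and the next brightest probe set, in 9010 genes, 1025, 686, 2020, 103 and 83; the cause was not tested, beyond fewer arrays and fewer genes. Under the other alternatives these 5 counts stayed within 1.5 times; quantile normalisation gave 523 lost and 233 gained genes, an offset of 16 429 and 284, and arrays weighted equally 3361 on the average.

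On the next brightest probe set 19 of the differences of named genes turned. Average differences became -0.11 for Fhl1, -0.077 for Kcnk5, 0.27 for Ing3, -1.01 for Klf4, -1.06 for Mfsd2b, 0.08 for Ikzf1, -0.18 for Angpt1, -0.046 for Tyms, 0.34 for Hspa4l, -0.47 for Dnajb1, 0.81 for Nolc1, -0.13 for Tgfbr3, -0.076 for Il6st, -0.17 for Asxl1 and -0.079 for Cavin1. The MPP exit became -0.11 for Kcnk5, and the PreMegE exit -0.26 for Fhl1, -0.048 for Kcnk5 and 0.84 for Ing3, which was 0.40 with the mean of all probe sets. With HSC 1 as the lone HSC array the average became 1.91 for Klf2 and 0.047 for Cxcl2. The cause was not tested.

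Deviations of same-numbered arrays correlated at -0.05 to 0.41, highest between HSC 3 and PreMegE 3. Arrays of different numbers were not compared, so whether the replicate numbers pair the samples is not settled. With the replicate block 3024 genes were called on the average, 2153 on the MPP exit, 385 were lost and 288 gained. Probe sets near the lower quartile (3.27 to 3.35) limit what a progenitor level can show; 36 lost genes lay under it in MPP and 56 in PreMegE.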

Other observations

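Several genes next in order behind the named ones, chosen after their values were seen, are on none of the gene lists. Among the lost genes were the soluble guanylate cyclase subunit Gucy1a1, which read 6.84, 6.51 and 7.06 in HSC, 4.72 to 5.02 in MPP and 2.76 to 3.06 in PreMegE (2.90 ± 0.14, or 0.92 on its next brightest probe set), and the endocytic scaffold Itsn1, which read 9.63, 9.81 and 9.65, 7.79 to 8.21 and 6.52 to 6.84 (2.37 ± 0.13). Both fell in steps without overlap. Sox6, a transcription factor of globin switching, had exits of 2.10 ± 0.26 to MPP and 1.68 ± 0.24 to PreMegE, which were not called apart (adjusted p = 0.221), and an average of 1.89 ± 0.22, or 0.90 on its next brightest probe set. The Notch feedback inhibitor Nrarp gave 1.88 ± 0.16, lipoprotein lipase, Lpl, 2.26 ± 0.26, and the phosphatase Dusp3 2.13 ± 0.20 on the average, but the next brightest probe sets gave 0.53 for Nrarp, 0.08 for Lpl and 0.68 for Dusp3.

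Among the gained genes were the leukocyte integrins Itgal and Itgb7. Itgal read 6.53, 5.90 and 6.14 in HSC, 7.83 to 7.91 in MPP and 7.01 to 7.92 in PreMegE, and Itgb7 read 6.30, 6.15 and 5.87, 7.21 to 7.46 and 7.22 to 7.61, so both groups of progenitors lay above HSC on every array. T cells had 9.74 and 11.64. The next brightest probe set of Itgal gave an average of -0.09. The adhesion receptor Adgrg3 was gained more to MPP than to PreMegE (-2.18 ± 0.17 and -1.22 ± 0.16, adjusted p = 0.000195 between the progenitors).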
